A study of Mus musculus with 5 samples.

Results

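The genes described are 10 regulators of energy metabolism: the nuclear receptors Ppara, Ppard and Pparg, their partners Rxra and Rxrg, the oestrogen-related receptors Esrra, Esrrb and Esrrg, and the co-activators Ppargc1a and Ppargc1b. They were chosen by symbol. Each was read from its brightest probe set annotated with exactly 1 gene symbol, and all 10 had such a probe set, among 22180 genes on the array. Log2 signals came from 5 whole-transcript arrays of total RNA from fresh hearts of male mice aged 12 weeks on the C57BL/6 background. The Akita group held 2 arrays, replicates 1 and 3, and the wild type group 3 arrays, replicates 3, 4 and 5. Akita mice, written Ins2+/- in the labels, carry a mutation in the Insulin 2 gene and serve as a model of type 1 diabetes. The labels give no blood glucose and no statement that each array came from its own animal, and the tests therefore speak only of the variation among these arrays, part of which may be technical. Values for the replicates are given below in the order named here.

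PPAR receptors are ligand-activated transcription factors that bind DNA together with a retinoid X receptor (RXR) and switch on genes for the uptake, storage and oxidation of fatty acids. ERR receptors have no known natural hormone and act on genes of the tricarboxylic acid cycle, the respiratory chain and ATP synthesis. PGC-1 proteins do not bind DNA themselves but are recruited by both receptor families, and in the heart, which lives mainly on fatty acids, they raise mitochondrial capacity.

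Akita replicate 3 stood apart from the other arrays in atrial myocyte markers. Over all 8 markers, none of them under the filter on dim genes, the mean log2 signal was 6.94 and 9.61 in Akita hearts and 7.08, 7.26 and 7.24 in wild type hearts. Bmp10, an atrial growth factor gene, lay at 5.71 and 10.83 in Akita hearts and at 4.63, 4.64 and 5.18 in wild type hearts. The labels give no part of the heart, and the part of atrial tissue in the results was not tested, so values without Akita replicate 3 are given for each regulator and each list of pathway genes. Bulk values cannot show which cells gave a signal, and without that array the median of the atrial list was -0.17.

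None of the 10 regulators differed between Akita and wild type hearts past the threshold, an adjusted p under 0.05 by limma over 15528 genes, which 0.328% of the genes tested passed. The adjusted p-values ran from 0.284 to 0.958. At an unadjusted p under 0.05, which 13.6% of genes met, the count was 1 of 10, Esrrb. In the group means 9 of 10 lay lower in Akita and Pparg lay 0.02 higher, where 56.4% of all genes tested lay lower and 43.3% higher. The count lower was 7, 8 or 10 under other scalings. The median difference was -0.15 over the 10 regulators and -0.03 over all genes tested, or -0.07 over the brighter 50th percentile and above, which held all 10. In 3 of 10, Esrrb, Rxra and Rxrg, both Akita arrays lay under every wild type array, where this held for 19.9% of genes tested, and for 29.7% in either direction. The 95% intervals of the fold of Akita over wild type ran from 0.571 at their lowest end to 1.21 at their highest.

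**Figure D1:**
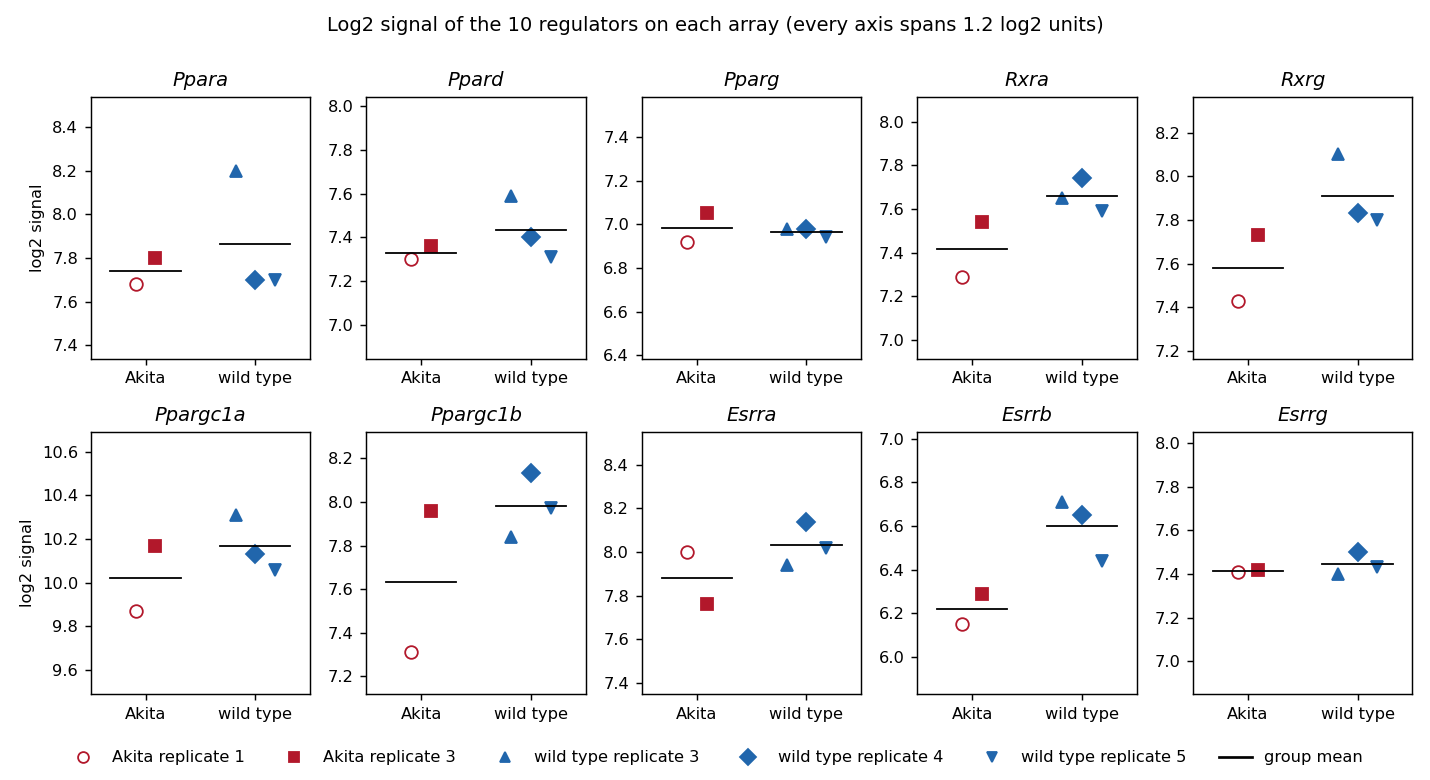
Log2 signal of each regulator on each array, with Akita at the left and wild type at the right of every panel, 1 point per array and a line at the group mean. Akita and wild type points do not overlap for Esrrb, Rxra and Rxrg, and for Ppargc1b the 2 Akita points lie at 7.31 and 7.96.

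Ppara, the main fatty acid sensor of the heart muscle cell, lay at 7.68 and 7.80 in Akita hearts and at 8.20, 7.70 and 7.70 in wild type hearts (probe set 17313862). Wild type replicate 3 stood above the other arrays, which all lay between 7.68 and 7.80. The Akita mean was 7.74 ± 0.08 (SD, n = 2) against 7.87 ± 0.29 (SD, n = 3) in wild type, a log2 difference of -0.13 (SE 0.17, adjusted p = 0.796 by limma). As a fold of Akita over wild type this was 0.916, with a 95% interval from 0.691 to 1.21. Without wild type replicate 3 the difference was 0.04, and without Akita replicate 3 it was -0.19.

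Ppard, a broadly expressed receptor that also drives fatty acid oxidation in muscle, lay at 7.30 and 7.36 in Akita hearts against 7.59, 7.40 and 7.31 in wild type hearts (probe set 17335297). The groups overlapped, and the difference was -0.10 (SE 0.12, adjusted p = 0.760 by limma). It was -0.13 without Akita replicate 3 and -0.03 without wild type replicate 3. A dimmer probe set, annotated to both Ppard and the locus 1810013A23Rik, lay at 4.34 and 4.80 in Akita hearts and at 5.34, 4.96 and 5.17 in wild type hearts. There the groups did not overlap, but the signal cannot be assigned to either gene and was not tested.

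Pparg, the receptor that directs fat cell formation and lipid storage, had the second narrowest range of the 10 over the arrays, 0.13 log2 units. It lay at 6.92 and 7.05 in Akita hearts, against 6.98, 6.98 and 6.94 in wild type hearts (probe set 17461942). The wild type arrays lay between the 2 Akita arrays, with a difference of 0.02 (SE 0.11, adjusted p = 0.958 by limma) and a fold interval from 0.851 to 1.21. Without Akita replicate 3 the difference was -0.05. White adipocyte markers lay higher in Akita beside it in 7 of the 7 tested, with 0 past the threshold by limma and 6 at an unadjusted p under 0.05, where 4.13% of all genes tested lay higher. The mean log2 signal of those 7 was 6.69 and 7.30 in Akita hearts and 6.30 to 6.40 in wild type hearts. No marker was listed at 0. The defining marker Adipoq lay under the filter on dim genes, at 3.93 and 4.11 in Akita hearts and 3.93, 4.05 and 3.58 in wild type hearts, as did Lep, and Cfd was not analysed here. In whole heart RNA, more cells of a type and more RNA per cell cannot be told apart.

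Rxra and Rxrg, which pair with the PPAR receptors on DNA, both lay lower in Akita hearts without passing the test. Rxra lay at 7.29 and 7.54 in Akita hearts and at 7.65, 7.74 and 7.59 in wild type hearts (probe set 17368550; log2 difference -0.25, SE 0.12, adjusted p = 0.441 by limma). Rxrg, the muscle-enriched form, lay at 7.43 and 7.73 in Akita hearts and at 8.10, 7.83 and 7.80 in wild type hearts (probe set 17219110; log2 difference -0.33, SE 0.15, adjusted p = 0.386 by limma). Akita replicate 3 came within 0.05 log2 units of the lowest wild type array for Rxra and 0.07 for Rxrg. Akita replicate 1 was the lowest array for both. Without Akita replicate 1 the differences were -0.12 for Rxra and -0.18 for Rxrg, and without Akita replicate 3 they were -0.37 and -0.48. The third form, Rxrb, from the list of co-regulators, lay at 6.38 and 6.47 in Akita hearts against 6.76, 6.69 and 6.95 in wild type hearts (log2 difference -0.38, SE 0.12, adjusted p = 0.274). All 3 RXR genes thus had Akita arrays under every wild type array, as did 19.9% of genes tested, and none passed the threshold. Rxrb was named for its small p in these same data.

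Ppargc1a, which encodes the cold-, exercise- and fasting-inducible PGC-1 alpha, lay at 9.87 and 10.17 in Akita hearts and at 10.31, 10.13 and 10.06 in wild type hearts (probe set 17448001). Akita replicate 3 lay inside the wild type range and replicate 1 below it. The difference was -0.15 (SE 0.14, adjusted p = 0.691 by limma; fold 0.903, interval 0.721 to 1.13), and it was 0.00 without Akita replicate 1 and -0.30 without Akita replicate 3.

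Ppargc1b, which encodes the related PGC-1 beta, varied most over the arrays, by 0.82 log2 units. It lay at 7.31 and 7.96 in Akita hearts, against 7.84, 8.13 and 7.97 in wild type hearts (probe set 17354739). Akita replicate 1 stood below all other arrays and replicate 3 within the wild type range. The difference of -0.35 (SE 0.20, adjusted p = 0.492 by limma) became -0.02 without Akita replicate 1 and -0.67 without Akita replicate 3. With 1 Akita array left, that array was assumed to vary like the other group.

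Esrra, the ERR form that works most closely with PGC-1 in mitochondrial gene control, lay at 8.00 and 7.76 in Akita hearts and at 7.94, 8.14 and 8.02 in wild type hearts (probe set 17362111). It was the only one of the 10 in which Akita replicate 3 was the lowest array, and the groups overlapped (log2 difference -0.15, SE 0.13, adjusted p = 0.643 by limma). Its difference was -0.03 without Akita replicate 3 and -0.27 without Akita replicate 1. Esrrg, the form enriched in oxidative tissue, was the steadiest of the 10, with all 5 arrays within 0.10 log2 units. It lay at 7.41 and 7.42 in Akita hearts and at 7.40, 7.50 and 7.43 in wild type hearts (probe set 17220627; log2 difference -0.03, SE 0.11, adjusted p = 0.936). Its fold interval, 0.826 to 1.16, covered small changes in either direction, and its difference was -0.03 without Akita replicate 3 and 0.00 without wild type replicate 4.

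Esrrb, best known from embryonic stem cells and the inner ear, had the smallest p of the 10. It lay at 6.15 and 6.29 in Akita hearts and at 6.71, 6.65 and 6.44 in wild type hearts (probe set 17277504). Both Akita arrays lay under every wild type array, by 0.15 log2 units at the closest. The Akita mean was 6.22 ± 0.10 (SD, n = 2) against 6.60 ± 0.14 (SD, n = 3) in wild type, a log2 difference of -0.38 (SE 0.13, unadjusted p = 0.019 and adjusted p = 0.284 by limma; fold 0.768, interval 0.625 to 0.944). It ranked 1042 by p among the genes tested. With each array left out in turn its difference stayed between -0.46 and -0.31, all short of the threshold, and was -0.45 without Akita replicate 3.

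**Figure D2:**
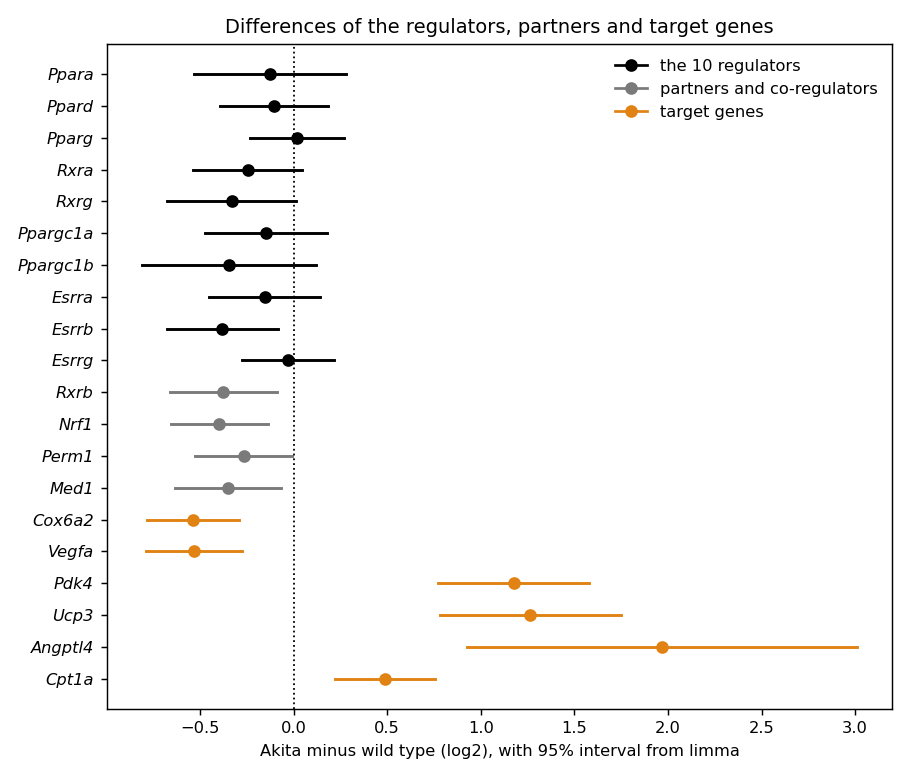
Log2 difference of Akita minus wild type with its 95% interval from limma for the 10 regulators (black), partners and co-regulators (grey) and target genes (orange). The interval of Esrrb lies below 0 and those of the other 9 regulators include 0, while Pdk4, Ucp3, Angptl4 and Cpt1a lie above 0. The grey and orange genes were picked from their lists for a small p in these same data. Their intervals lying off 0 follow from that choice and do not stand for their lists.

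Promoter sequence from RefSeq (assembly GRCm38.p6, 250 bases before to 50 after an annotated start) was found for 9 of the 10, with 17 starts in all. The letters AGGTCA, the half-site bound by PPAR, RXR and ERR receptors, occurred on either strand in 4 of the 17, 2 of Pparg and 1 each of Rxra and Rxrg, and in 16.3% of all 32851 promoters in the table. The longer AAGGTCA, which contains the half-site, occurred in 2 of 17 and in 4.72% of all. TCAAGGTCA, the ERR site, which contains both, occurred in 0 of 17 and 0.423% of all. The direct repeat bound by PPAR with RXR, AGGTCA written 2 times with any 1 letter between, occurred in 0 of 17 and 0.0396% of all. TGACG, part of the site for cAMP-responsive factors, occurred in 4 of 17, those of Ppara, Ppard, Ppargc1a and the first start of Esrrb, and in 20.8% of all. A match is a run of letters and not a measured site. The following stretches are shown because Esrrb, Rxra and Rxrg were the regulators whose groups did not overlap, Ppargc1a holds that partial site of the factors known to induce it, and Ucp3 is a target gene described further on. Capitals mark TGACG or its reverse complement in Esrrb (2 matches) and Ppargc1a (1 match), and AGGTCA or its reverse complement in Rxra (2 matches), Rxrg (1 match) and Ucp3 (2 matches). All are written along the strand of the gene. Matches over the lists of target genes were not counted, so Ucp3 does not stand for the other targets.
Esrrb, first start, chr12:86360867-86361166, plus strand: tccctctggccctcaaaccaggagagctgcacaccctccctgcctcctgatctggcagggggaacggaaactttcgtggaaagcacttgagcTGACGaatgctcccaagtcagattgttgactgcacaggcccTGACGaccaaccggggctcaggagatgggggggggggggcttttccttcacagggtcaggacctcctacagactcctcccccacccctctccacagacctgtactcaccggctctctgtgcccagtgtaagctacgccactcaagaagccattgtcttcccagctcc
Rxra, second start, chr2:27709042-27709341, plus strand: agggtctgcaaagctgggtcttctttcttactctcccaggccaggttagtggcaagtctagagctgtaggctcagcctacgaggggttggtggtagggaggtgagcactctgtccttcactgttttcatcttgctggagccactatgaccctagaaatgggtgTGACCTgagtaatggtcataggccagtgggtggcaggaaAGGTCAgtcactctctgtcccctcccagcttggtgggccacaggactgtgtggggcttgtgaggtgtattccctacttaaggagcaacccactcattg
Rxrg, second start, chr1:167618015-167618314, plus strand: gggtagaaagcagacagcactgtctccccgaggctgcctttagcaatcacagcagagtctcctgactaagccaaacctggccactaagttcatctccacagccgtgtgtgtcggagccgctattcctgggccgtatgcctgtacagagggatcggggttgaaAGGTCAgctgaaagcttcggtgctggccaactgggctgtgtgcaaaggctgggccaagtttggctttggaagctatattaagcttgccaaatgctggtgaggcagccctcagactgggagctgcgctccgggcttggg
Ppargc1a, chr5:51567676-51567975, minus strand: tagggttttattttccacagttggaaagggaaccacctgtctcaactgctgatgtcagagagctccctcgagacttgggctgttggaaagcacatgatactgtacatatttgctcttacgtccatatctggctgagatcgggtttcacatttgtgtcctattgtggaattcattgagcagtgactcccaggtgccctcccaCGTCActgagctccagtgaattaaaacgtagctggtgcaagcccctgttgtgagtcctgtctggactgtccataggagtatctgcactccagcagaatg
Ucp3, chr7:100472741-100473040, plus strand: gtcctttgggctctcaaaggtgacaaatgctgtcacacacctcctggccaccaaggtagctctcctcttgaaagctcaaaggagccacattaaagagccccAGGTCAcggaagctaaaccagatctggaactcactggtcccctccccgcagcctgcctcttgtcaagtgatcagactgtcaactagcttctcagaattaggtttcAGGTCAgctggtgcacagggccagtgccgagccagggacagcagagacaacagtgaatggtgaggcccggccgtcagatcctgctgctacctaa

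Akita replicate 1 was the lowest of the 5 arrays for 8 of 10 regulators, and it lay below Akita replicate 3 for 9 of 10. The shares of all genes tested with these orders were not counted, so the counts cannot be called particular to the regulators. The median over the 10 of the signal minus the wild type mean was -0.25 in Akita replicate 1 and -0.07 in replicate 3, against -0.07 and -0.01 over all genes tested. Macrophage markers also lay lowest there, with list medians of -0.35 and -0.04 in the same arrays. Their mean log2 signal was 6.99 and 7.25 in Akita hearts and 7.24 to 7.40 in wild type hearts over all 10 markers, none of them under the filter. Fibroblast markers had medians of 0.06 and 0.59, with a mean log2 signal over 10 genes of 8.88 and 9.43 in Akita hearts and 8.79 to 8.88 in wild type hearts. The part of these cell types in the differences of the regulators was not tested. Cardiomyocyte markers were bright on every array. Their mean over 12 genes was 12.17 and 12.25 in Akita hearts and 12.18 to 12.23 in wild type hearts. The defining markers of the labelled tissue were thus present. The list medians were -0.06 and -0.07 in Akita replicates 1 and 3, with 9 of 12 lower in the group means and 2 higher. In 7 of 12 both Akita arrays lay under every wild type array, against 19.9% of genes tested. In 2 of 12 they lay above, against 9.89%. The 12 include Nppa, which is also one of the atrial markers. In the remaining marker lists the medians in Akita replicates 1 and 3 were 0.05 and 0.35 for brown adipocytes, -0.07 and -0.12 for skeletal muscle and -0.02 and 0.06 for endothelium. The brown adipocyte gene Ucp1 lay at 5.35 and 6.82 in Akita hearts and 4.36, 4.21 and 4.17 in wild type hearts, with an adjusted p of 0.131 by limma. Prdm16, a regulator of brown fat identity, went the other way, at 6.31 and 6.48 in Akita hearts and 6.77, 6.72 and 6.65 in wild type hearts (log2 difference -0.32, adjusted p = 0.303), and Cox8b differed by -0.03. Of the 6 brown markers tested 4 lay higher and 2 lower, while Elovl3 and Zic1 lay under the filter.

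**Figure D3:**
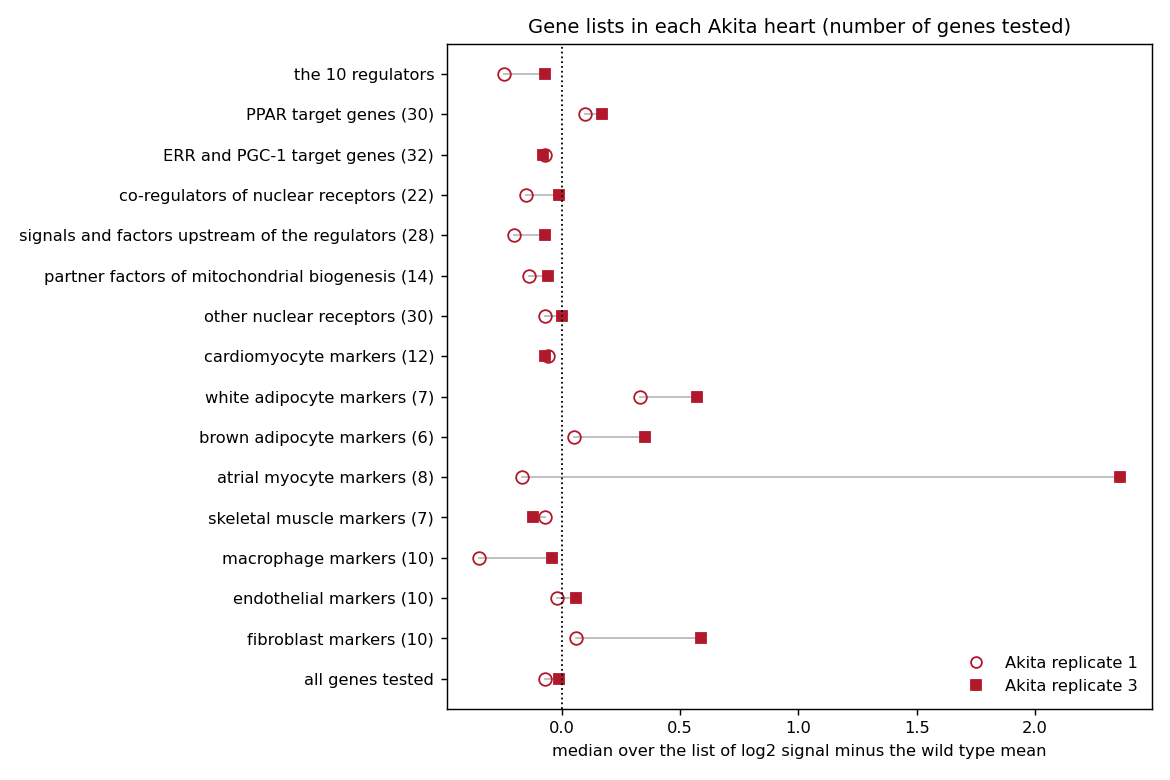
Median over each gene list of the log2 signal minus the wild type mean, in Akita replicate 1 (open circles) and Akita replicate 3 (squares), with the number of genes tested in brackets. The 10 regulators lie at -0.25 and -0.07, PPAR target genes at 0.10 and 0.17, and atrial markers at -0.17 and 2.36.

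Target genes of the PPAR receptors lay mostly higher in Akita hearts, short of the threshold. Of 37 listed genes 32 had a probe set and 30 passed the filter. Of these 23 lay higher and 6 lower, against 43.3% and 56.4% of all genes tested. Acadm, a medium-chain acyl-CoA dehydrogenase, lay at a difference of 0.00. By limma 0 passed the threshold, which 0.213% of genes passed upwards and 0.116% downwards, and 6 lay higher at an unadjusted p under 0.05, against 4.13% of all genes. In 15 of 30 both Akita arrays lay above every wild type array, against 9.89% of genes. In 2 of 30, Cpt2 and Lpl, they lay under every wild type array, against 19.9%. This list, like those described below, was chosen with earlier results of these data known, so its counts are not independent support. The list median was 0.15, beside -0.03 over all genes tested. Under the other scalings 23 to 28 lay higher, and without Akita replicate 3 the count was 23 with a median of 0.10. White adipocyte markers, higher in 7 of 7 as given above, share Fabp4 with this list, and their part in the result was not tested.

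Pdk4, the kinase that holds back pyruvate dehydrogenase, lay at 12.01 and 12.41 in Akita hearts against 10.79, 11.13 and 11.18 in wild type hearts, a fold of 2.26 (interval 1.71 to 2.99; adjusted p = 0.0550 by limma). Both Akita arrays stood apart from the wild type arrays, and the threshold was passed with no filter (adjusted p = 0.0451). Without Akita replicate 3 the differences were 0.98 for Pdk4 and 1.11 for Ucp3, described next, with adjusted p of 0.110 and 0.121. Ucp3, a mitochondrial carrier of muscle, lay at 9.04 and 9.35 in Akita hearts and at 7.58, 8.27 and 7.94 in wild type hearts (fold 2.40, interval 1.72 to 3.36, adjusted p = 0.0785). These 2 folds lay outside the interval of each of the 10 regulators. Pdk4 and Ucp3, like Angptl4 and Cpt1a below, were picked from the list for their small p in these same data. The regulators were not picked by p, so the contrast follows in part from the choice. Angptl4, a secreted inhibitor of lipoprotein lipase, lay at 6.47 and 8.23 in Akita hearts and at 5.13, 5.60 and 5.42 in wild type hearts. Its difference of 1.97 (adjusted p = 0.161) was 2.85 without Akita replicate 1, where it passed the threshold (adjusted p = 0.00539), and 1.09 without Akita replicate 3. Cpt1a, which commits fatty acids to the mitochondrion, lay at 9.09 and 9.29 in Akita hearts and 8.70, 8.67 and 8.73 in wild type hearts (log2 difference 0.49, adjusted p = 0.166). The dehydrogenase genes Acadl and Acadvl, at 0.10 and 0.16, and the transporter gene Cd36, at 0.14, differed by less, with adjusted p from 0.551 to 0.713. Among the 6 target genes that lay lower, Cpt2 differed by -0.20 and Lpl by -0.08, with adjusted p of 0.503 and 0.776 by limma.

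Target genes of ERR and PGC-1 lay at or slightly below the wild type level. All 32 genes with a probe set, of 34 listed, passed the filter. Of these 7 lay higher and 25 lower, against 43.3% and 56.4% of all genes tested. By limma 0 passed the threshold, and 5 lay lower at an unadjusted p under 0.05, against 9.49% of all genes. In 12 of 32 the Akita arrays lay under every wild type array, against 19.9% of genes tested. The median was -0.06 beside -0.03 over all genes, and the direction of the list depended on the scaling, with 14 of 32 lower when each array was centred on its median over the genes tested. Without Akita replicate 3 the count lower was 20 of 32, with a median of -0.07. Cox6a2, the heart and muscle form of a cytochrome oxidase subunit, lay at 12.28 and 12.24 in Akita hearts and 12.85, 12.76 and 12.78 in wild type hearts (log2 difference -0.54, SE 0.11, adjusted p = 0.125). Vegfa, the blood vessel growth factor, lay at 9.83 and 9.94 in Akita hearts and at 10.34, 10.46 and 10.45 in wild type hearts (log2 difference -0.53, SE 0.11, adjusted p = 0.137). Both had groups that did not overlap, and without Akita replicate 3 the differences were -0.52 and -0.59. Uqcrc1, a core subunit of respiratory complex III, differed by -0.30 and Fndc5, a muscle membrane protein gene, by -0.26, with adjusted p of 0.327 and 0.345. Cycs, the cytochrome c gene, went the other way at 0.18 (adjusted p = 0.507).

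Co-regulators that act with these receptors lay lower in 15 of 22 genes tested (25 listed), against 56.4% of all genes tested. Their median was -0.11, with 0 past the threshold by limma. With arrays centred over the genes tested 11 lay lower. At an unadjusted p under 0.05 the count was 4 lower and 0 higher, against 9.49% and 4.13% of all genes tested. In 9 of 22 the Akita arrays lay under every wild type array, against 19.9% of genes, and in 3 of 22 above, against 9.89%. Besides Rxrb, the 4 at an unadjusted p under 0.05 included Ncoa6, a co-activator, at 7.29 and 7.57 in Akita hearts and 7.83, 7.97 and 7.87 in wild type hearts (log2 difference -0.46, adjusted p = 0.215). Med1, the Mediator subunit that nuclear receptors contact, lay at 8.09 and 8.13 in Akita hearts and 8.59, 8.47 and 8.32 in wild type hearts (log2 difference -0.35, adjusted p = 0.295). Perm1, a muscle gene induced by PGC-1 and ERR, is counted in their target list above as well as here. It lay at 10.02 and 10.10 in Akita hearts and 10.42, 10.28 and 10.28 in wild type hearts (log2 difference -0.27, adjusted p = 0.359). The list median was -0.01 without Akita replicate 1, with 11 of 22 lower, and -0.15 without Akita replicate 3, with 17 lower.

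Genes upstream of the regulators lay lower in 22 of 28, against 56.4% of all genes tested, and in 15 to 23 under the other scalings. Their median was -0.12, with 0 past the threshold by limma. At an unadjusted p under 0.05 the count was 5 lower and 1 higher, against 9.49% and 4.13% of all genes tested. In 13 of 28 the Akita arrays lay under every wild type array, against 19.9% of genes, and in 1 of 28 above, against 9.89%. Without Akita replicate 3 the count lower was 24 with a median of -0.20, and without Akita replicate 1 it was 17 with a median of -0.07. Sik1, a kinase that holds cAMP signalling in check, lay at 8.15 and 7.81 in Akita hearts and 8.44, 8.59 and 8.62 in wild type hearts (log2 difference -0.57, adjusted p = 0.177). Crtc1, a co-activator of CREB, differed by -0.49, Mef2d, a muscle transcription factor gene, by -0.46 and Foxo3, a factor restrained by insulin signalling, by -0.43, with adjusted p from 0.210 to 0.276. Among the genes of AMP-activated kinase, Prkaa2, its muscle catalytic subunit, differed by -0.26 (adjusted p = 0.464). Klf5 and Klf15, factors known to act on Ppara and on heart lipid use, differed by 0.14 and -0.26.

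Partner factors through which PGC-1 reaches the mitochondrial genome lay lower in 9 of 14 tested (15 listed), against 56.4% of all genes tested. The count lower was 10 without Akita replicate 3, and 7 to 12 under the other scalings. Their median was -0.08, with 0 past the threshold by limma. At an unadjusted p under 0.05 4 lay lower, against 9.49% of all genes tested. The median was -0.14 without Akita replicate 3 and -0.06 without Akita replicate 1. Nrf1, a nuclear factor for respiratory genes, lay at 6.00 and 6.12 in Akita hearts and 6.52, 6.40 and 6.45 in wild type hearts (log2 difference -0.40, SE 0.11, adjusted p = 0.215). Tfb1m, a methyltransferase of mitochondrial ribosomal RNA, differed by -0.39, Polrmt, the mitochondrial RNA polymerase, by -0.36 and Polg2, a subunit of the mitochondrial DNA polymerase, by -0.29. Tfam, which packages and transcribes mitochondrial DNA, differed by -0.22 (adjusted p = 0.432) and Gabpa by 0.10.

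In the rest of the nuclear receptor family, 19 of 30 tested genes (39 listed) lay lower and 11 higher, against 56.4% and 43.3% of all genes tested. That direction turned to 13 and 10 lower with quantile normalization again and with centring over the genes tested. The median was -0.04, with 0 past the threshold by limma and 4 lower at an unadjusted p under 0.05, against 9.49% of all genes tested. Without Akita replicate 3 the median was -0.07 with 17 lower, without Akita replicate 1 it was -0.002 with 15 lower and 15 higher, and without wild type replicate 4 it was -0.01. In 5 of 30 the Akita arrays lay under every wild type array, against 3 of 10 for the regulators and 19.9% of all genes tested. The 4 at an unadjusted p under 0.05 were Nr4a1, an immediate early receptor (log2 difference -1.16, adjusted p = 0.229), its relative Nr4a3 (log2 difference -0.80, adjusted p = 0.167), Nr0b2, a receptor without a DNA-binding domain that represses others (log2 difference -0.48, adjusted p = 0.293), and Nr1h3, the oxysterol receptor LXR alpha (log2 difference -0.34, adjusted p = 0.275). The size of some of these differences changed with the Akita array left out. Nr4a1, at 8.03 and 6.95 in Akita hearts and 8.21, 8.79 and 8.94 in wild type hearts, differed by -0.62 without Akita replicate 3 and by -1.70 without Akita replicate 1. Nr0b2 differed by -0.74 and -0.23 in the same order. It is also counted among the genes upstream of the regulators described above. Nr3c1, the glucocorticoid receptor, differed by 0.01 and Thra, the main thyroid hormone receptor of the heart, by -0.06.

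Likeness of profile was measured as the Euclidean distance between log2 values, each gene centred on its own mean over the 5 arrays. The nearest to Ppara were Nprl3 (0.061), Mfap3l (0.067) and Kpna1 (0.068), which shared the high value in wild type replicate 3. Nearest to Ppargc1a were Slc25a23 (0.023), Tspyl1 (0.030) and Rmnd1 (0.046), with Akita replicate 1 lowest. Those nearest to Esrra were Htr3a (0.046), Trim54 (0.056) and Zfp771 (0.057), with Akita replicate 3 lowest. The named genes were picked for their distance over these same arrays, so the shared highest or lowest array follows from the choice. Rmnd1, at 3.99 to 4.40, lay near the filter on dim genes at log2 4.06. Within a distance of 0.2 lay 153 genes for Ppara, 1513 for Ppargc1a and 660 for Esrra.

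**Figure D4:**
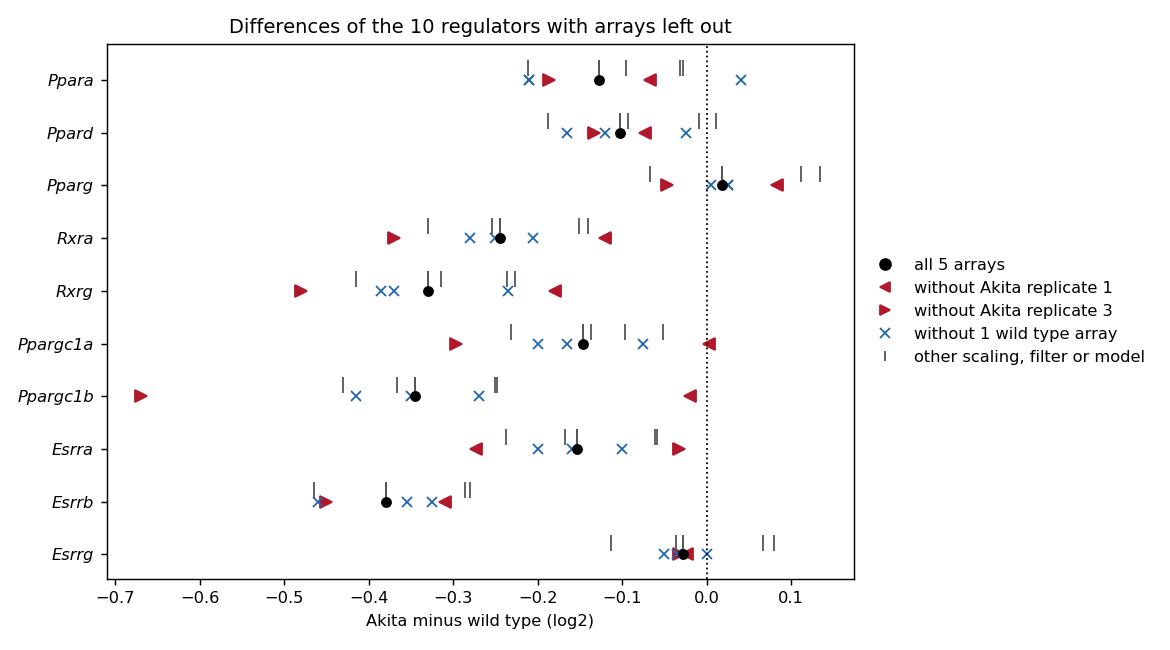
Log2 difference of Akita minus wild type of each regulator with all 5 arrays (black), without an Akita array (red triangles), without a wild type array (blue crosses) and under another scaling, filter or model (grey ticks). Ppargc1b moves from -0.02 to -0.67 with the Akita array left out, while Esrrb stays between -0.47 and -0.28 throughout.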

How the data were processed

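Affymetrix Expression Console was the authors' tool, per the submitters' processing notes, and the deposited tables hold log2 signals for each probe set. Software version, summarisation, normalization and build are not given in the sources used, and the log base was read from the range, 1.27 to 13.66. Scaling between arrays could hide a shift common to the transcriptome, and background light compresses the folds of dim genes. Array medians ran from 4.53 to 4.71; the number of arrays limits precision.

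Of 41345 probe sets, 23521 had exactly 1 gene symbol in the platform annotation, 1814 several and 16010 were not listed. Entrez identifiers of 23328 matched RefSeq GRCm38.p6, and 0 symbols changed. Per gene the probe set with the highest mean was kept, and a floor at the 30th percentile of all means, log2 4.06, kept 15528 genes. Groups came from the sample titles. Differences of Akita minus wild type came from limma 3.58.1 under R 4.3.3 (two-sided moderated test from lmFit and eBayes, 3 residual and 4.38 prior degrees of freedom), and p-values were adjusted by Benjamini-Hochberg across the tested genes; intervals are at the 95% level. Lists were described by counts and medians, with no set test. Genes named were the 10 regulators, up to 4 of each list with the smallest p, and 3 nearest profiles of Ppara, Ppargc1a and Esrra; other list genes were named after their values were seen. The members and lists were chosen with earlier results of these data known. On simulated data with 200 of 15528 genes changed, 82 of 100 log2 changes of 1 and 99 of 100 of 2 were recovered. There 7 of the 188 calls were false, and smaller changes were not simulated. The simulated noise was independent between genes, with no array standing apart as Akita replicate 3 did. The real arrays gave 51 calls, which makes the adjusted threshold stricter there. The recovery therefore does not measure the power of the real comparison. Alternatives were other filters, averaging a gene's probe sets, a second quantile normalization, centring, eBayes with trend and robust prior, weighted arrays and leaving out each array; centring on the genes tested was chosen after seeing the data. The labels name no batch. Promoters were searched in Python 3.11.15.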

Additional observations from a re-analysis of the deposited data

How the results depend on the processing

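Under 13 alternatives the 10 regulators gave 130 differences, of which 0 passed the threshold and 7 turned, while Esrrg lay at 0.00 without wild type replicate 4. The turned ones were Ppara at 0.04 without wild type replicate 3 (range with an array left out -0.21 to 0.04), Ppard at 0.011 and Esrrg at 0.080 with quantile normalization again, Esrrg at 0.066 with arrays centred over the genes tested, Pparg at -0.067 with arrays centred on their medians and at -0.047 without Akita replicate 3 (range -0.047 to 0.083), and Ppargc1a at 0.003 without Akita replicate 1 (range -0.297 to 0.003). The lowest adjusted p of a regulator was 0.121, for Ppargc1b without Akita replicate 3. The number lower of the 10 was 7 with quantile normalization again and 8 or 10 with arrays centred over the genes tested or on their medians. Over all genes, the 51 calls became 86 with no filter, 32 with quantile normalization, 84 with arrays centred on their medians, 30 with arrays centred over the genes tested, 197 with an intensity trend and robust prior, 28 with array weights, and 9 to 44 with an array left out, lowest without wild type replicate 3; the cause was not tested. In the calls, 33 higher and 18 lower became 41 and 43 with arrays centred on their medians, 25 and 5 over the genes tested, and 60 and 137 with the trend. Among PPAR targets 1 gene passed with no filter or a filter at the 50th percentile (Pdk4), 2 with arrays centred on their medians (Pdk4 and Ucp3), 4 with the trend (those, Cpt1a and Fabp4), and 0 to 1 with an array left out (Angptl4, without Akita replicate 1). Among ERR and PGC-1 targets 2 passed with the trend (Cox6a2 and Vegfa), and 14 lay lower with arrays centred over the genes tested. No paired analysis was possible because the groups share 1 replicate number. Signal near background limits what dim markers such as Adipoq can show.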
